A study of Brachypodium distachyon with 4 samples.

Results

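LHY (BRADI_3g16515v3) and GIGANTEA (GI, BRADI_2g05226v3), a pair of circadian clock genes, were followed through leaf RNA-seq libraries of Brachypodium distachyon, a temperate grass. They were taken by locus number, with earlier results of these data known, and are 2 of the 35125 identifiers in the deposited table of read counts. Bd21-3, an inbred line, served as wild type, and jmj1-1 is a mutant that the labels place in the Bd21-3 line. There were 2 libraries of each genotype. The labels give leaf tissue for both genotypes, taken on day 17 when seedlings had reached leaf stage 4. The plants lived under long days with 20 h of light and 4 h of darkness, and both genotypes were harvested 10 h after lights on. The labels do not say what kind of lesion jmj1-1 is, how many plants made up a library, or whether replicate libraries stand for separate plants. The p-values therefore rest only on the spread between these libraries, which may be technical. Those of the gene-wise tests also draw on the variance of all tested genes. They do not come from a gene's own 2 libraries per genotype alone. Names of loci are published assignments, since the files hold identifiers alone.

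The plant clock is a loop of genes that repress one another at different times of day. LHY encodes a MYB-type DNA-binding protein whose transcript, in Arabidopsis and rice, is highest around dawn, and it represses genes of the evening. GI encodes a large plant-specific protein whose transcript, in Arabidopsis, is highest late in the day. In Arabidopsis GI works with light-sensing F-box proteins on the CONSTANS gene and so links the clock to the florigen gene FT. In a comparison at a single hour, a difference in overall level and a shift in the timing of the daily rhythm cannot be told apart.

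The libraries held 13825916 to 16520046 counted reads, and 21456 genes had enough reads to test. Neither the labels nor the file name the locus of JMJ1, so its transcript could not check the labels, and leaf markers were not analysed. Of the tested genes, 13.9% passed edgeR's quasi-likelihood test at an adjusted p of 0.05, 7.75% as lower and 6.13% as higher in jmj1-1. With library totals as the only scaling, 64.1% of the calls were higher, against 44.2% with TMM, the scaling used here.

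LHY was lower and GI was higher in the mutant. LHY had 9250 and 9102 reads in Bd21-3 replicates 1 and 2, and 7132 and 6261 reads in jmj1-1 replicates 1 and 2. After TMM scaling this was 571 and 575 CPM (reads scaled to a common library size) in Bd21-3 and 437 and 443 CPM in jmj1-1. Both mutant libraries thus lay below both wild-type libraries, and the libraries within a genotype were nearly level. Such separation, here and for GI, was also found in genes that did not pass the test. Its share over all tested genes was not computed. The wild-type mean was 573 ± 2.6 CPM, and the mutant mean was 440.3 ± 4.2 CPM (SD, n = 2 each). LHY fell by 23.2% in jmj1-1, a log2 change of -0.38 (SE 0.038, adjusted p = 4.18e-12). On the log2 scale its replicates were 0.0094 apart in Bd21-3 and 0.019 apart in jmj1-1, while the closest libraries of different genotypes were 0.37 apart.

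GI had 3906 and 3999 reads in Bd21-3 replicates 1 and 2, and 4895 and 4193 reads in jmj1-1 replicates 1 and 2. Its scaled levels were 241 and 253 CPM in Bd21-3 and 300.1 and 297 CPM in jmj1-1. Both mutant libraries lay above both wild-type libraries, with Bd21-3 replicate 1 the lowest of all. The wild-type mean was 247 ± 8.1 CPM, and the mutant mean was 298 ± 2.3 CPM (SD, n = 2 each). GI was 1.21-fold higher in jmj1-1, a log2 change of 0.27 (SE 0.042, adjusted p = 9.72e-07). Its replicates were 0.067 apart in Bd21-3 and 0.016 apart in jmj1-1 on the log2 scale, and the closest libraries of different genotypes were 0.23 apart. GI therefore varied more than LHY between the wild-type libraries, yet by far less than the difference between genotypes.

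**Figure D1:**
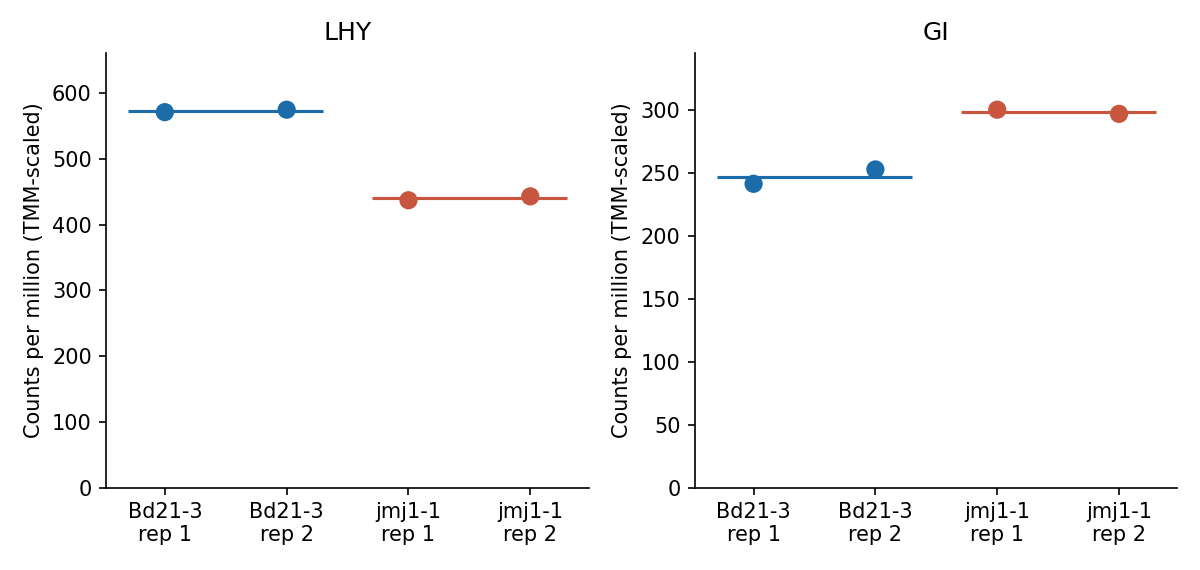
TMM-scaled CPM (vertical axis, from 0) of LHY (left) and GI (right) in each of the 4 libraries, with horizontal lines at the genotype means. LHY stands at 571 and 575 CPM in Bd21-3 and 437 and 443 CPM in jmj1-1. GI stands at 241 and 253 CPM in Bd21-3 and 300.1 and 297 CPM in jmj1-1. Neither gene's genotypes overlap, and the share of all tested genes without overlap was not computed.

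The read ratio of LHY to GI put both changes into 1 value per library that needs no library scaling. It is a ratio of reads and not of transcripts per length, so its size within a library does not rank the genes, while its change between genotypes is free of gene length. Bd21-3 replicate 1 had 2.37 LHY reads per GI read (exact 95% Clopper-Pearson interval 2.28 to 2.46), and Bd21-3 replicate 2 had 2.28 (2.19 to 2.36). In jmj1-1 replicate 1 the ratio was 1.46 (1.40 to 1.51), and in jmj1-1 replicate 2 it was 1.49 (1.44 to 1.55). The intervals of replicates overlapped and those of different genotypes did not. They cover counting error only.

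The mean ratio was 2.32 ± 0.065 in Bd21-3 and 1.48 ± 0.026 in jmj1-1 (SD, n = 2 each). By the geometric means, the ratio was 36.5% lower in jmj1-1, which is 1.57-fold, or a log2 difference of -0.65. On the log2 scale the replicates were 0.057 apart in Bd21-3 and 0.035 apart in jmj1-1, against 0.61 between the closest libraries of different genotypes. An exact two-sided permutation test over the libraries gave p = 0.333, the smallest p that 2 against 2 libraries allow. When every gene was instead fitted with the GI reads as library size, LHY changed by -0.65 (SE 0.052, adjusted p = 1.21e-16). That fit takes the GI reads as fixed library sizes without error, so its p is not a test of the ratio itself. In that fit 48.1% of all genes were called and the median log2 change of all genes was -0.27, since every gene is then read against GI.

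**Figure D2:**
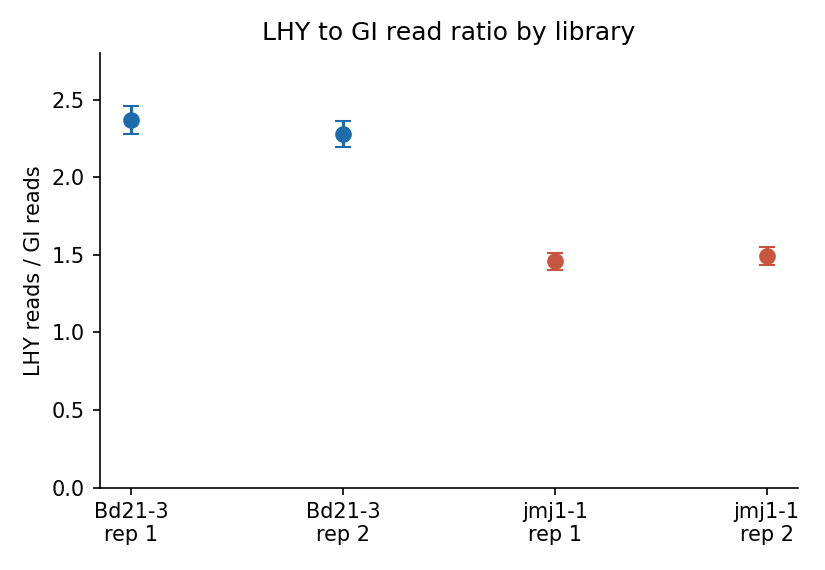
Reads of LHY divided by reads of GI (vertical axis, from 0) in each library, with exact 95% intervals of counting error. The Bd21-3 libraries stand at 2.37 and 2.28 and the jmj1-1 libraries at 1.46 and 1.49.

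Both genes are abundant, and calls were frequent among abundant genes. Of the 1764 tested genes with a mean of at least 100 CPM, 40.0% were called, 29.8% as lower and 10.1% as higher in jmj1-1. The call of LHY as lower belongs to the commoner direction at this level, and the call of GI as higher to the rarer one. Library totals as the only scaling gave 339 higher and 397 lower calls in this class, against 179 and 526 with TMM. The 179 higher calls became 87 without jmj1-1 replicate 1, 115 without jmj1-1 replicate 2, and 102 in DESeq2 or without the expression filter. The changes of both genes were larger than usual for it, since the median change among its 705 called genes was 1.16-fold. Of the 526 lower genes, 48 changed by more than LHY. Of the 179 higher genes, 45 changed by more than GI. The replicate gaps of LHY were below the median of the class, which was 0.051 in Bd21-3 and 0.035 in jmj1-1 on the log2 scale. For GI the gap in Bd21-3 was above that median and the gap in jmj1-1 below it.

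**Figure D3:**
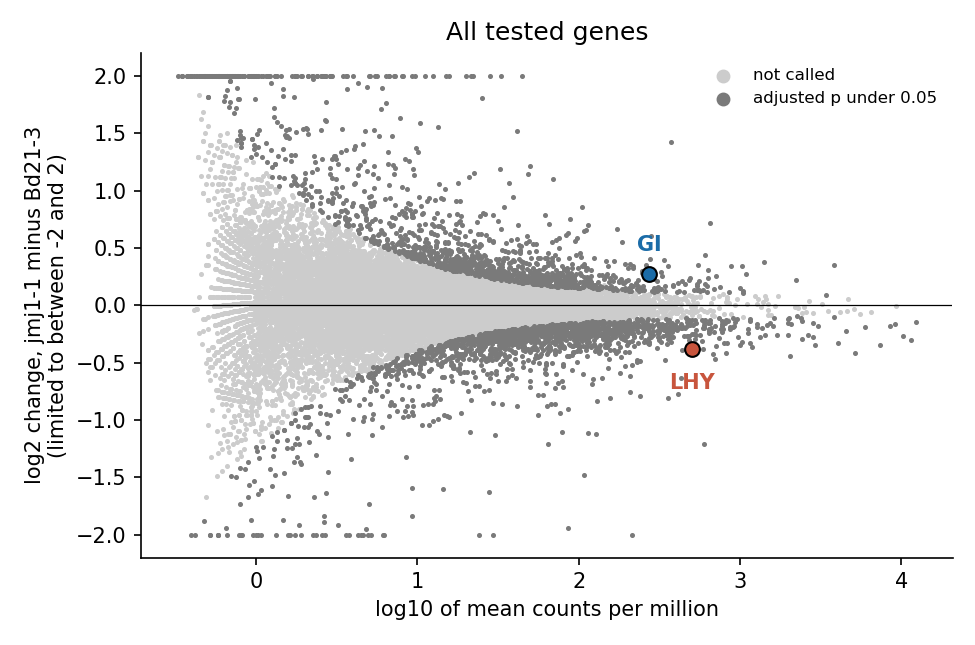
Log2 change from Bd21-3 to jmj1-1 (vertical axis, with values beyond it drawn at its edge) against the log10 of the mean CPM (horizontal axis) for the 21456 tested genes, with genes past an adjusted p of 0.05 in dark grey. LHY at -0.38 lies at the lower edge and GI at 0.27 at the upper edge of the band of abundant genes.

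The other clock genes on a list of 8 loci went in both directions or did not pass the test. The list was chosen with earlier results of these data known. Counting LHY and GI, 2 of the 8 fell, 2 rose and 4 did not pass, beside 7.75% lower and 6.13% higher over all tested genes. Among genes of at least 100 CPM, which LHY, GI and PRR73 are, the shares were 29.8% lower and 10.1% higher. The median log2 change was -0.08, against 0.0033 over all tested genes. The pseudo-response regulators, which repress LHY through the day in Arabidopsis, did not move together. PPD1 (BRADI_1g16490v3), the member that sets photoperiod response in grasses, fell by 22.9%, with 62.5 and 60.9 CPM in Bd21-3 and 48.7 and 46.4 CPM in jmj1-1 (adjusted p = 8.85e-06). PRR95 (BRADI_4g36077v3) rose 1.29-fold, with 44.9 and 49.5 CPM in Bd21-3 and 64.1 and 57.3 CPM in jmj1-1 (adjusted p = 3.15e-05). The genotypes did not overlap for either gene, but nor did they for TOC1, ELF3 and LUX, which did not pass. The share of all tested genes whose levels do not overlap was not computed. PRR73 (BRADI_1g65910v3) had a log2 change of -0.04 (SE 0.046, adjusted p = 0.67), its genotypes overlapped, and the change was 0.0136 when only library totals were used.

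TOC1 (BRADI_3g48880v3), the evening pseudo-response regulator, stood at 70.5 and 65.8 CPM in Bd21-3 and at 64.1 and 63.9 CPM in jmj1-1. Its log2 change was -0.09 (SE 0.060, adjusted p = 0.39). ELF3 (BRADI_2g14290v3) and LUX (BRADI_2g62067v3) encode parts of the evening complex, a night-time repressor in Arabidopsis. ELF3 had a log2 change of -0.07 (SE 0.055, adjusted p = 0.47). LUX had one of -0.15 (SE 0.074, adjusted p = 0.22). Without Bd21-3 replicate 1 the value of LUX was -0.23 (adjusted p = 0.0503), and without Bd21-3 replicate 2 it was -0.06. That these genes missed the threshold does not show that their levels were equal.

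**Figure D4:**
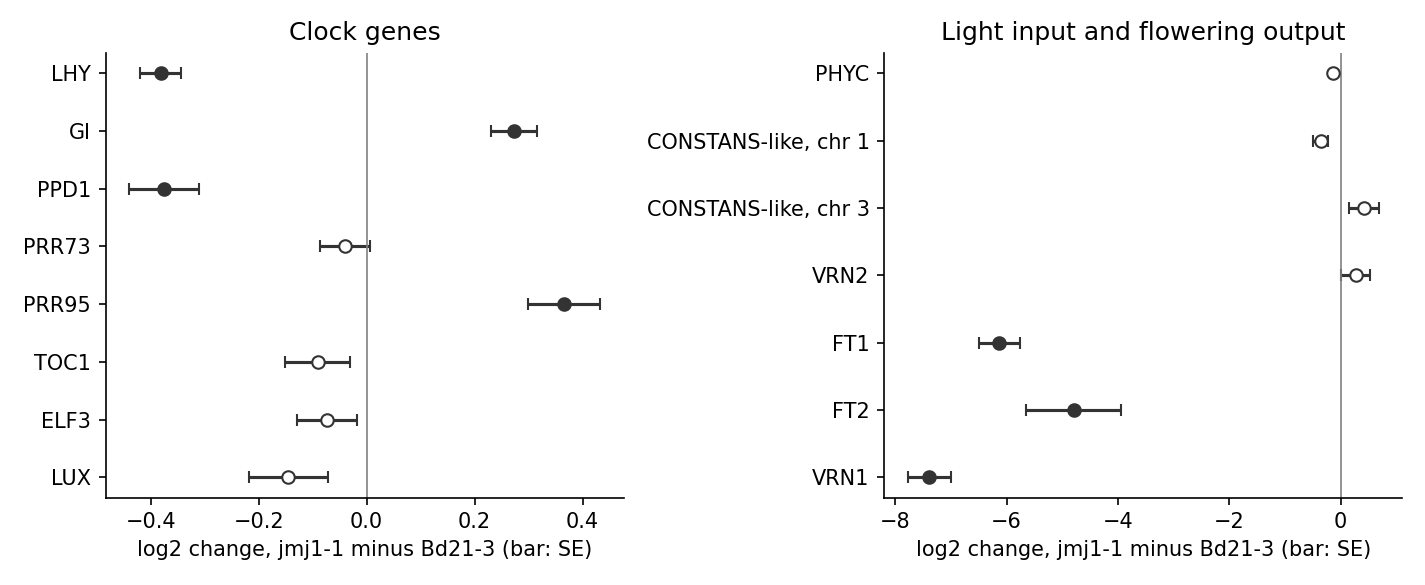
Log2 change from Bd21-3 to jmj1-1 (horizontal axes, which differ in range; bars are standard errors) of the clock genes on the left and of light input and flowering genes on the right. Filled points passed an adjusted p of 0.05. LHY and PPD1 lie near -0.38, GI at 0.27 and PRR95 at 0.37, while FT1, FT2 and VRN1 lie far to the left at fitted values that rest on few reads in the mutant.

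Read ratios within libraries set LHY and GI against each of the other clock genes. The ratio of LHY to PPD1 stood nearly still. There were 9.14 and 9.44 LHY reads per PPD1 read in Bd21-3 and 8.98 and 9.56 in jmj1-1, and the genotypes overlapped. GI overlapped in the same way with PRR95, at 5.37 and 5.11 reads per PRR95 read in Bd21-3 and 4.68 and 5.18 in jmj1-1. The log2 difference between genotype means was largest in size for LHY to PRR95, at -0.74. This ratio was 12.7 and 11.6 in Bd21-3 and 6.82 and 7.74 in jmj1-1. Next came LHY to GI and then GI to PPD1, which was 3.86 and 4.15 in Bd21-3 and 6.16 and 6.40 in jmj1-1, a log2 difference of 0.65.

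LHY read against TOC1 was 8.10 and 8.74 in Bd21-3 and 6.82 and 6.93 in jmj1-1. GI read against TOC1 was 3.42 and 3.84 in Bd21-3 and 4.68 and 4.64 in jmj1-1. The genotypes stood apart for both ratios, LHY to TOC1 being lower and GI to TOC1 higher in the mutant. Of the 7 ratios with LHY as numerator, 6 did not overlap between genotypes, and of the other 6, with GI as numerator, 5 did not. Such separation was common, since 83.1% of the ratios of LHY to each tested gene with reads in every library, and 74.3% of those of GI, did not overlap either. The 13 ratios share their numerators and are not independent. Exact permutation tests gave p = 0.333 or more for each, and 0.394 or more after Benjamini-Hochberg adjustment over the 13, so none could pass.

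The genes around GI in the photoperiod pathway formed a second list of 7 loci, also chosen with earlier results known. Of these, 3 fell and 4 did not pass the test, beside 7.75% lower over all tested genes. Their median log2 change was -0.36, against 0.0033 over all tested genes. That median is the value of a single gene that did not pass, the CONSTANS-like gene on chromosome 1. The 4 loci that did not pass went both ways. The CONSTANS-like genes, which carry the family of regulators that GI acts on in Arabidopsis, did not pass. The one on chromosome 1 (BRADI_1g43670v3) stood at 12.1 and 11.1 CPM in Bd21-3 and at 8.52 and 9.70 CPM in jmj1-1 (adjusted p = 0.075). The one on chromosome 3 (BRADI_3g56260v3) stood at 2.35 and 2.02 CPM in Bd21-3 and at 2.94 and 2.90 CPM in jmj1-1 (adjusted p = 0.37). Neither gene's genotypes overlapped, but nor did those of PHYC, VRN2 and the reference genes ACT3 and UBC18, which did not pass either. For UBC18 the closest libraries of different genotypes were only 0.00032 apart on the log2 scale. The share of all tested genes whose levels do not overlap was not computed. The gene on chromosome 3 rested on 32 to 48 reads per library.

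The light receptor gene PHYC (BRADI_1g08400v3) had a log2 change of -0.13 (SE 0.051, adjusted p = 0.083), and without Bd21-3 replicate 1 it passed at -0.17 (adjusted p = 0.026). VRN2 (BRADI_3g10010v3), a CCT-domain repressor of flowering, had one of 0.27 (SE 0.26, adjusted p = 0.59) on 39 to 52 reads per library. The fallen genes were the florigen genes FT1 (BRADI_1g48830v3) and FT2 (BRADI_2g07070v3) and the MADS-box gene VRN1 (BRADI_1g08340v3), which promotes flowering. FT1 had 163 and 150 reads in Bd21-3 and 2 in each jmj1-1 library (adjusted p = 8.36e-21). FT2 had 18 reads in each Bd21-3 library and 1 and 0 in jmj1-1 (adjusted p = 1.80e-05), and the scaled ratio was 34.2 (exact 95% interval 5.76 to 1389). VRN1 had 204 and 192 reads in Bd21-3 and 1 in each jmj1-1 library (adjusted p = 4.66e-24), a scaled ratio of 188 (51.8 to 1560). The fitted log2 change of FT2 was -4.79 and became -4.03 when jmj1-1 replicate 2 was left out, and no mutant read remained when jmj1-1 replicate 1 was. The changes of these 3 genes were thus far larger than those of LHY and GI, and GI went the opposite way to them.

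Reference genes gave another scale. ACT3 (BRADI_4g41850v3), an actin gene, and UBC18 (BRADI_4g00660v3), a ubiquitin-conjugating enzyme gene, are used to normalise transcript measurements in this grass. ACT3 stood at 656 and 662 CPM in Bd21-3 and at 652 and 629 CPM in jmj1-1, and UBC18 at 35.0 and 31.3 CPM against 31.3 and 30.7 CPM. Neither passed the test (adjusted p = 0.56 and 0.52), and ACT3 changed sign with library totals alone, from -0.04 to 0.0126. With the summed reads of these genes as library size, LHY changed by -0.34 (SE 0.044, adjusted p = 9.05e-09) and GI by 0.32 (SE 0.048, adjusted p = 3.92e-07). ACT3 gave most of the summed reads, with 8887 to 10629 per library against 434 to 567 for UBC18. LHY was thus still lower and GI still higher on a scale set mostly by ACT3.

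**Figure D5:**
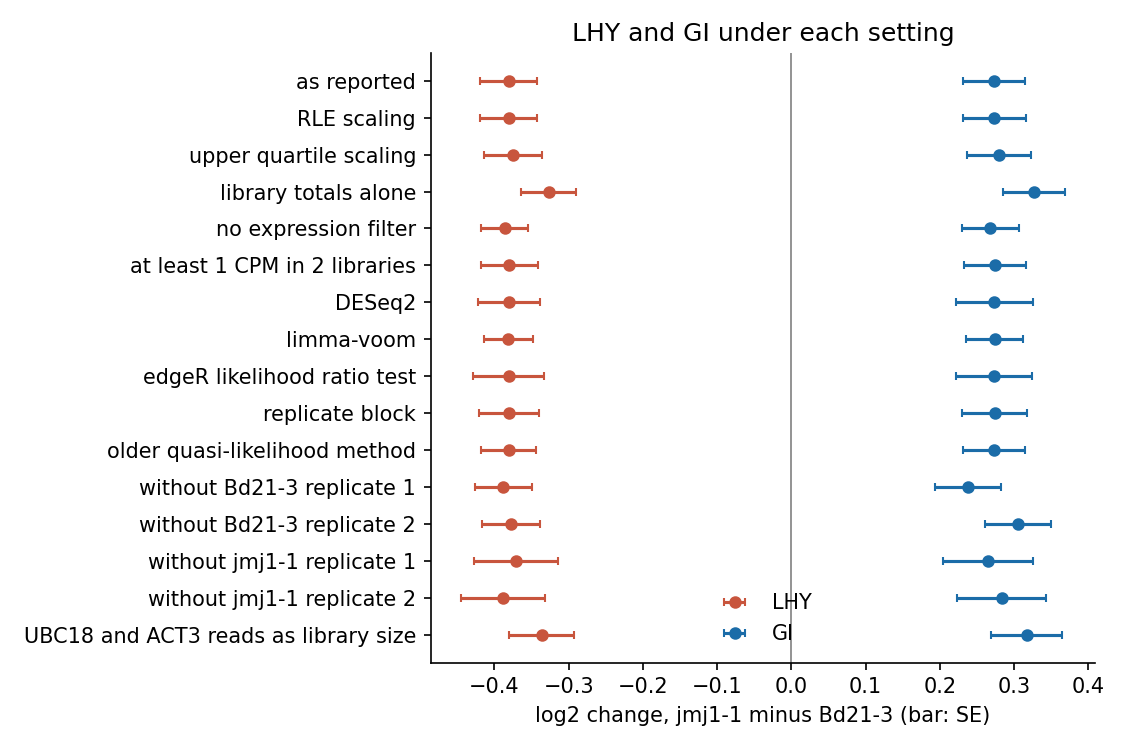
Log2 change of LHY and GI from Bd21-3 to jmj1-1 (horizontal axis, bars are standard errors) as reported and under 15 other settings of scaling, filter, tool and libraries. LHY lies between -0.39 and -0.33 and GI between 0.24 and 0.33 in these settings.

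The loci next to LHY and GI by locus number went both ways or were not called. Among the 10 tested loci on each side of LHY, 3 were lower and 2 were higher in jmj1-1, and the largest called log2 change was 0.35 in size. DESeq2 called 2 of these loci, beside 1283 of all 21456 tested genes. Among the 10 on each side of GI, edgeR's quasi-likelihood test called 0, with 1 at an unadjusted p under 0.05, and DESeq2 called 0. With 20 loci around each gene, the shares can be read only loosely against those over all tested genes, which was 13.9% for edgeR's test.

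Other genes had nearly the same profile over the 4 libraries. The measure was the root mean square distance between centred log2 CPM values, over 3951 genes with a mean of at least 50 CPM, and 4 points from 2 genotypes make close matches easy to find. Nearest to LHY was BRADI_2g53620v3 (distance 0.0083), with 74.4 and 74.9 CPM in Bd21-3 and 57.8 and 58.2 CPM in jmj1-1. BRADI_4g28800v3 was next (distance 0.010), with 58.1 and 57.8 CPM against 44.8 and 45.0 CPM. Nearest to GI was BRADI_3g11377v3 (distance 0.0098), with 50.8 and 54.2 CPM in Bd21-3 and 63.9 and 62.8 CPM in jmj1-1. It was followed by BRADI_2g36862v3 (distance 0.013), with 216 and 225 CPM against 273 and 270.2 CPM. The files do not say what these 4 loci encode.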

How the data were processed

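Messenger RNA libraries were made from leaf total RNA with a stranded kit, per the labels' protocols. The authors deposited whole-number read counts per gene, 1 column per library, not normalised, as its values show. The tools named in the submitters' processing notes are cutadapt, HISAT2, SAMtools and featureCounts. No source used here gives their versions, the genome build, the strand setting or the handling of reads with several matches, so reads of overlapping, antisense or related genes could be shared.

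Genes passing edgeR's filterByExpr were scaled by TMM and tested with edgeR's quasi-likelihood F-test (edgeR 4.0.16, R 4.3.3, legacy method off), two-sided, genotype as the only term, adjusted by Benjamini-Hochberg over the 21456 genes tested, at 0.05. Adjusted p-values come from it unless another test or setting is named. Standard errors are the absolute log2 change over the square root of F. CPM values were computed here.

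The members and lists were chosen with earlier results of these data known. Named loci were both genes, both lists, the reference genes and the nearest 2 profiles to each gene. Neighbouring loci were added later. Alternatives covered scalings, filters, DESeq2 1.42.0, limma-voom (limma 3.58.1), the likelihood ratio test, a replicate block, each library left out and, chosen after seeing the data, the older quasi-likelihood method. Replicates were no copies of each other, with a chi-square per degree of freedom of 2.41 in Bd21-3 and 1.85 in jmj1-1.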

Additional observations from a re-analysis of the deposited data

How the results depend on the processing

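LHY stayed lower and GI higher, both past the threshold, under the 15 settings run for both, with log2 changes of -0.39 to -0.33 and 0.24 to 0.33 and adjusted p of at most 1.40e-04 and 0.0034, the highest without the expression filter. The ratio of LHY to GI in jmj1-1 over that in Bd21-3 was 0.635, and also 0.635 from summed reads. It lay between 0.623 and 0.648 with 1 library left out. List calls were counted in 14 settings, which leave out the scalings by ACT3 and UBC18 reads and by GI reads. The clock list kept 4 calls and the photoperiod list 3 in each setting, except that PHYC was added without Bd21-3 replicate 1. PRR73 and ACT3 turned to 0.0136 and 0.0126 with library totals alone, which also gave 2041 higher genes against 1315. Against 2978 calls, dropping the expression filter left 1788, of which 746 were higher and 1042 lower, and DESeq2 made 1283, of which 515 were higher and 768 lower. Leaving out 1 library gave 1792 to 2856 calls, 749 to 1236 higher and 1042 to 1620 lower, the fewest without jmj1-1 replicate 1 or 2 (1792 and 1969). These fits have fewer samples. Elsewhere the cause was not tested. With the replicate block there were 3140 calls, and all named genes stayed on their side of the threshold. Deviations of same-numbered libraries correlated at -0.018 and the labels pair none. Genes with few reads, such as FT2, are limited by depth.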
